A study of Saccharomyces cerevisiae with 6 samples.

Results

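The genes described here encode the machinery of RNA polymerases I and III in budding yeast (Saccharomyces cerevisiae), 37 genes in all. They were taken by gene symbol from a list of subunits and factors, and the platform annotation gave them 43 of the 7680 spotted features. Of the 37 genes, 31 had 1 feature and 6 had 2 (RPC37, RPC25, RRN3, RRN9, RRN11 and TFC4). All 43 features had enough values to be fitted, and no level filter was applied. Total RNA of the temperature-sensitive yra1-1 mutant was set against total RNA of the Yra1 wild-type strain on 6 two-colour arrays, with cells of both strains at 37 °C, the restrictive temperature for the mutant. Both strains were at that temperature, so an effect of the mutation and a different response of the mutant to heat cannot be told apart. YRA1 encodes an RNA-binding protein that helps to export messenger RNA from the nucleus. The labels give neither the strain background nor how long the cells were at 37 °C, and do not say whether the RNAs came from separate cultures, so a p-value reflects the scatter of these 6 arrays alone, part or all of which may be technical.

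RNA polymerase I makes the large ribosomal RNA precursor in the nucleolus, and RNA polymerase III makes transfer RNAs, the 5S ribosomal RNA and other small RNAs. Polymerase I is brought to the ribosomal DNA by the initiation factor Rrn3, core factor (Rrn6, Rrn7, Rrn11) and the upstream activating factor, which includes Rrn5, Rrn9 and Rrn10. Polymerase III is placed by TFIIIC, which reads promoter elements inside the gene, and by TFIIIB, which holds the enzyme at the start. Maf1 represses polymerase III when growth stops. In yeast the messenger RNAs of these subunits are generally made together with those of ribosome assembly factors and drop in stress. The 43 features are of messenger RNA only, so ribosomal and transfer RNA output was not measured.

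A ratio on these arrays has a size but no settled direction. Arrays 1, 4 and 6 are labelled as carrying the mutant RNA in channel 1, and arrays 2, 3 and 5 as carrying it in channel 2, and the sources used here do not say which channel is the numerator. Values are therefore given in 2 readings, as deposited and turned by the labelled channel, where arrays 2, 3 and 5 change sign. If the numerator is the same channel on every array, the turned reading holds the strain difference and the deposited reading a channel difference. If it is the same strain on every array, the 2 readings change places. Which of these holds was not tested. In both readings a positive or a negative side is named and not a gain or a loss in the mutant. All values are log2 ratios after each array was centred on its median, so they are relative to the typical feature. Before centring the array medians ran from −3.91 to 4.11 (log2). Across all features, deposited columns of the same channel assignment correlated at 0.042 to 0.39 and columns of opposite assignment at −0.13 to 0.33. Across the 43 features the median correlation was 0.27 for the 6 pairs of same assignment and −0.12 for the 9 pairs of opposite assignment, of which 7 were below 0. YRA1 itself lay at −1.39, 3.07, 1.64, 1.21, 3.49 and 1.00 on arrays 1 to 6 as deposited. The sign of YRA1 on array 1 thus differed from that on the other 5 arrays, including arrays 4 and 6 with the same labelled assignment. TRP1 and URA3, genes often used as markers in laboratory strains, also had the opposite sign on array 1 to that on arrays 2 to 6 (TRP1 −3.48 against 2.76 to 4.16, URA3 3.19 against −5.92 to −2.21). On arrays 2 to 6 each of these 3 genes kept 1 sign as deposited, across both labelled assignments. Turning therefore split those arrays, with YRA1 at −3.07, −1.64 and −3.49 on arrays 2, 3 and 5 against 1.21 and 1.00 on arrays 4 and 6. The turned reading thus gave no single sign for these 3 genes, and the reason was not tested. No title but that of array 1 opens with the prefix mex, and the labels do not explain it. The source label of array 1 names the mutant, as on the other arrays. Whether the prefix is tied to the reversed signs was not tested. Whether array 1 runs the other way was not tested, and values with it turned over are given where an unadjusted call of a single gene changes. In bulk RNA, fewer cells that express a gene and less RNA per cell cannot be told apart.

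No gene of the polymerase I and III machinery passed the threshold in either reading, and the number with small p-values was no higher than among all features. By limma, 0 of 43 features had an adjusted p below 0.05 in the turned reading, where 0.013% of all features passed, and 0 of 43 in the deposited reading, where 1.65% passed. At an unadjusted p below 0.05 there were 5 of 43 features (11.6%) in the turned reading, against 13% of all features. The positive ones were RPA190, RPC34 and TFC8 (3 of 43, against 7.51% of all features), and the negative ones were RPC37 and SPT15 (2 of 43, against 5.48%). In the deposited reading there were 2 of 43 (4.65%), against 13.5% of all features. BDP1 was the positive one (1 of 43, against 6.13%) and RPC17 the negative one (1 of 43, against 7.33%). A single sign on every array with a value was seen for 4 of 43 features in the turned reading (7.32% of all features), of which RPA190 and TFC8 were positive (3.06% of all) and both RPC37 features negative (4.26%). As deposited it was seen for 2 of 43 (8.23% of all features), BDP1 being positive (4.15%) and RPC17 negative (4.08%). With array 1 turned over, the counts at an unadjusted p below 0.05 were 2 of 43 in the turned reading (RPC34 and TFC8) and 0 of 43 as deposited, where 3.80% and 8.84% of all features passed.

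**Figure D1:**
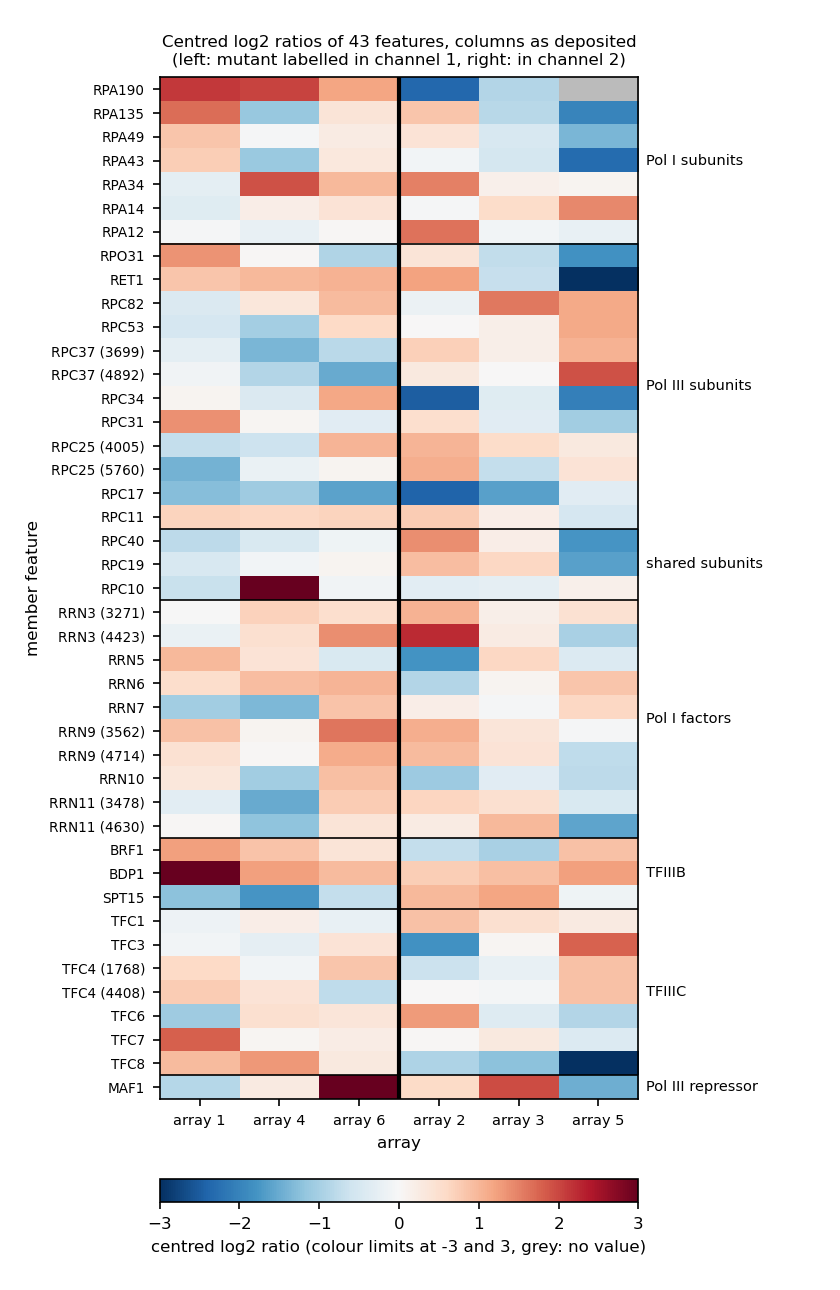
Centred log2 ratios of the 43 features (rows, grouped by role) on each array (columns, as deposited), with colour limits at −3 and 3 and grey for the missing RPA190 value. A row that changes colour at the vertical line has opposite signs in the 2 channel assignments, as for RPA190 and TFC8, and a row of 1 colour has the same sign in all 6 columns, as for RPC17 and BDP1.

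As a group the 43 features stayed close to the array medians. In the turned reading 25 fitted values were above 0 and 18 below 0 (58.1% positive, against 53.5% of all features), with a median of 0.14 against 0.042 for all features. As deposited 23 were positive and 20 negative (53.5% positive, against 51.5%), with a median of 0.037 against 0.017. The fitted values ran from −0.96 for SPT15 to 1.76 for TFC8 in the turned reading, and from −1.39 for RPC17 to 1.35 for BDP1 as deposited.

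RPA190, the largest subunit of polymerase I and the one that carries its catalytic centre, had the smallest p of the turned reading. As deposited its values were 2.11, −2.36, −0.89, 2.03 and 1.19 on arrays 1, 2, 3, 4 and 6, and array 5 had none. All 3 arrays with the mutant in channel 1 were thus above 0 and both measured arrays with it in channel 2 were below 0. The turned value was 1.70 ± 0.39 (SE, 5 arrays, 5 of 5 positive, limma unadjusted p = 0.00120, adjusted p = 0.202). It was 1.50 within labelled day 4 (arrays 1 and 3) and 1.19 on array 6, the measured array of day 1. The features around RPA190 on the slide lay on the same side, with a mean of 0.98 over the same 5 arrays. After those neighbours were subtracted RPA190 stood at 0.74 ± 0.25 (unadjusted p = 0.0191, adjusted p = 0.528), still positive on 5 of 5 arrays. With array 1 turned over it was 1.00 (unadjusted p = 0.127).

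RPA135, the second-largest subunit, which forms the active site with RPA190, did not share that pattern. It lay at 1.69, 0.84, −0.84, −1.13, −1.98 and 0.40 on arrays 1 to 6 as deposited, which is 3 arrays on each side of 0. The turned value was 0.49 ± 0.45 with 4 of 6 arrays positive (adjusted p = 0.741). The other 5 polymerase I subunits also spanned 0. In the turned reading RPA49 (0.42), RPA43 (0.48) and RPA34 (0.14) were positive, while RPA14 (−0.29) and RPA12 (−0.26) were negative. RPA49 and RPA34 form a dimer that helps initiation and elongation, RPA43 and RPA14 form the stalk that Rrn3 contacts through RPA43, and RPA12 acts in RNA cleavage and termination. RPA34 had the largest value of these 5 as deposited, at 0.72 ± 0.38 with 5 of 6 arrays positive (adjusted p = 0.464). The median of the 7 polymerase I subunits was 0.42 in the turned reading and 0.075 as deposited. On single arrays the turned median ran from −0.40 on array 2 to 0.80 on array 5, with 4 of 6 arrays above 0 and an SD of 0.46 between arrays. The turned median was 0.14 without array 5 and 0.22 without array 3, and as deposited it ran from −0.20 to 0.19 with 1 array left out. Turned, it was 0.15 with the arrays of a labelled day averaged, 0.14 with array 1 turned over and −0.16 after subtraction of the slide neighbours.

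Polymerase III subunits lay on both sides, and RPC37 was the one with both of its features on the same side on every turned array. RPC37 is part of the dimer with RPC53 that acts in initiation and termination. Its feature 3699 lay at −0.29, 0.71, 0.17, −1.38, 1.05 and −0.81 on arrays 1 to 6 as deposited. Its feature 4892, at another place on the slide, lay at −0.10, 0.29, 0.019, −0.87, 1.90 and −1.52. Both features were below 0 on the 3 arrays with the mutant in channel 1 and above 0 on the 3 arrays with it in channel 2. The turned values were −0.73 ± 0.32 (limma unadjusted p = 0.0401, adjusted p = 0.359) and −0.78 ± 0.36 (unadjusted p = 0.0521, adjusted p = 0.388), each negative on 6 of 6 arrays. By limma the unadjusted call of feature 3699 was lost with array 1 turned over (−0.64, unadjusted p = 0.100, adjusted p = 0.964), with the arrays of a labelled day averaged (−0.81, unadjusted p = 0.0569, adjusted p = 0.565) and with the day as a block (−0.58, unadjusted p = 0.248, adjusted p = 0.906). Feature 3699 had 2 values that were exact ratios of small whole numbers, and without such values it was at −0.83 (limma unadjusted p = 0.0690). The 2 features had turned means near 0 on labelled day 4, at −0.23 and −0.059, and farther from 0 on day 1, at −0.93 and −1.71. Slide neighbours had turned means of −0.20 and −0.18, and after their subtraction the features stood at −0.54 ± 0.26 and −0.61 ± 0.36, each negative on 5 of 6 arrays. RPC53, the partner in the dimer, stood at −0.37 ± 0.34 with 5 of 6 turned arrays negative (adjusted p = 0.742). On array 2 RPC53 lay at −1.6e-05 when turned, so its sign there carries little weight.

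RPO31 and RET1, the largest and second-largest subunits of polymerase III, were on the positive side in the turned reading. RPO31 lay at 1.35, 0.39, −0.74, 0.032, −1.81 and −0.91 on arrays 1 to 6 as deposited, and its turned value was 0.44 ± 0.40 with 4 of 6 arrays positive (adjusted p = 0.735). RET1 lay at 0.83, 1.20, −0.70, 0.98, −3.68 and 1.04, and its turned value was 1.01 ± 0.51 with 5 of 6 positive (adjusted p = 0.443). Array 5 gave RET1 its farthest value. The slide neighbours of RET1 stood at −5.51 on that array, and had a turned mean of 1.61 over all 6. After their subtraction RET1 lay on the other side, at −0.61 ± 0.37 (adjusted p = 0.614). RPC34 belongs to the RPC82, RPC34 and RPC31 trimer that opens the promoter and contacts TFIIIB. It lay at 0.072, −2.46, −0.37, −0.44, −2.05 and 1.16 as deposited, and at 0.95 ± 0.38 when turned (5 of 6 positive, unadjusted p = 0.0276, adjusted p = 0.330). With the arrays of a labelled day averaged it was 0.96 (unadjusted p = 0.0846). Its neighbours had a turned mean of 1.58, and once they were subtracted RPC34 was on the other side, at −0.63 ± 0.34 (adjusted p = 0.578). The other trimer members were RPC82 at −0.28 ± 0.35 and RPC31 at 0.33 ± 0.36 in the turned reading. After subtraction of the slide neighbours they stood at −0.077 ± 0.28 and −0.22 ± 0.24 (limma adjusted p = 0.963 and 0.803), on the same side as RPC34. The median of all polymerase III subunit features was then also negative, at −0.15, so that side was not particular to the trimer.

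RPC17, a subunit of the stalk that pairs with RPC25, had the smallest p of the deposited reading. It lay at −1.27, −2.41, −1.62, −1.07, −0.34 and −1.62 on arrays 1 to 6, below 0 on every array. The value as deposited was −1.39 ± 0.35 (6 of 6 negative, limma unadjusted p = 0.00189, adjusted p = 0.0779), and when turned it was 0.067 ± 0.35 (3 of 6 positive). Day 4 alone gave −1.45 and day 1 alone −0.98. Slide neighbours averaged −0.88, and after their subtraction RPC17 stood at −0.50 ± 0.26 with 5 of 6 arrays negative (adjusted p = 0.451). Without array 5 it passed, at −1.67 (adjusted p = 0.0276), and so it did with array weights, at −1.48 (adjusted p = 0.00694). With array 1 turned over it was −0.96 (unadjusted p = 0.0558, adjusted p = 0.563). Its stalk partner RPC25 did not show this: the 2 RPC25 features stood at 0.25 and −0.13 as deposited. RPC11, which acts in RNA cleavage and termination, was at 0.40 ± 0.31 as deposited with 5 of 6 arrays positive (adjusted p = 0.685), and 4 of its 6 values repeated, in every decimal, the value of some other feature on that array. The median of the 12 polymerase III subunit features was −0.11 when turned and −0.050 as deposited.

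The shared subunits RPC40 and RPC19, which form the assembly dimer of both enzymes, lay close to each other on every array. As deposited RPC40 was at −0.78, 1.40, 0.21, −0.47, −1.76 and −0.13 on arrays 1 to 6, and RPC19 was at −0.49, 0.92, 0.62, −0.076, −1.62 and 0.075. They were on the same side on 5 of 6 arrays, with a mean absolute gap of 0.32. Of the 6 RPC19 values 2 repeated, in every decimal, the value of some other feature on that array. When turned, RPC40 was negative on 5 of 6 arrays and RPC19 on 4, with array 5 the highest for both, and the fitted values were −0.20 ± 0.40 (adjusted p = 0.915) and −0.069 ± 0.38 (adjusted p = 0.973). After subtraction of slide neighbours the turned values of RPC40 and RPC19 were −0.048 ± 0.26 and 0.18 ± 0.30. Among 4 other pairs of subunits that bind each other, RPC53 and RPC37 shared a side on 5 of 6 arrays (mean gap 0.52). On array 2 that shared side rests on an RPC53 value of 1.6e-05. RPC25 and RPC17 shared a side on 3 arrays, and RPA49 with RPA34 and RPA43 with RPA14 on 2 each (gaps of 1.16 to 1.45). How often any 2 features share a side was not counted. Arrays 1 to 6 put RPC10, the small zinc-binding subunit found in all 3 nuclear polymerases, at −0.66, −0.32, −0.28, 3.35, 0.15 and −0.11. All arrays but array 4 thus lay within −0.66 to 0.15, and the fitted values were 0.51 ± 0.47 turned and 0.36 ± 0.47 as deposited.

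**Figure D2:**
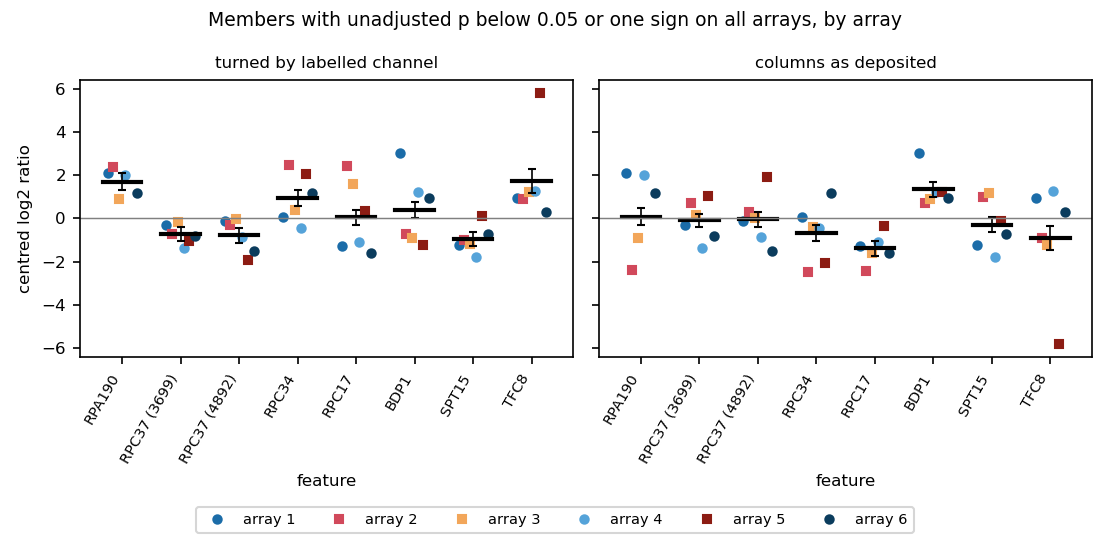
Centred log2 ratios on each array (points, circles for the mutant in channel 1 and squares for channel 2) of the 8 features with an unadjusted p below 0.05 or 1 sign on every array, with the fitted value and its SE in black, turned (left) and as deposited (right). RPA190 and TFC8 lie above 0 and both RPC37 features below 0 on every array when turned, and BDP1 lies above and RPC17 below 0 on every array as deposited.

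Of the 10 features of polymerase I initiation factors, 0 had an unadjusted p below 0.05 in either reading, against 13% (turned) and 13.5% (as deposited) of all features. Their fitted values ran from −0.39 to 0.42 when turned and from −0.34 to 0.66 as deposited. RRN3, which links the enzyme to core factor, was measured by 2 features. Feature 3271 lay at −0.012, 1.03, 0.18, 0.69, 0.47 and 0.50 on arrays 1 to 6 as deposited, and feature 4423 at −0.19, 2.25, 0.25, 0.49, −0.97 and 1.40. The features were on the same side on 5 of 6 arrays and parted on array 5. As deposited they stood at 0.48 ± 0.31 and 0.54 ± 0.43 (adjusted p = 0.596 and 0.687), and when turned at −0.085 and 0.030. RRN9 of the upstream activating factor gave the closest duplicates of the 6 genes, with both features on the same side on 6 of 6 arrays and a mean gap of 0.31. They stood at 0.66 ± 0.34 and 0.37 ± 0.34 as deposited (5 of 6 arrays positive each, adjusted p = 0.447 and 0.751). The other upstream activating factor genes, RRN5 (0.42) and RRN10 (0.40), were positive when turned and negative as deposited (−0.11 and −0.34), and 4 of the 6 RRN10 values repeated another feature's value on that array. Of core factor, RRN6 was at 0.41 when turned, RRN7 at −0.39, and the 2 RRN11 features at −0.29 and −0.066. The median of the 10 features was 0.10 when turned and 0.15 as deposited.

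TFIIIB held 1 feature with a small p in each reading, from different genes. BDP1, the TFIIIB subunit that helps to open the promoter, lay at 3.04, 0.74, 0.90, 1.23, 1.23 and 0.95 on arrays 1 to 6, above 0 on every array as deposited, with array 1 far above the rest. Its value as deposited was 1.35 ± 0.35 (6 of 6 positive, limma unadjusted p = 0.00271, adjusted p = 0.0882), and when turned 0.39 ± 0.35 (adjusted p = 0.733). Within day 4 the value as deposited was 1.97, within day 1 it was 1.09, and after subtraction of the slide neighbours, whose mean was 0.39, it was 0.95 ± 0.28 with 6 of 6 arrays positive (unadjusted p = 0.00875, adjusted p = 0.202). With array weights BDP1 passed, at 1.29 (adjusted p = 0.0226). With array 1 turned over it was 0.33 (adjusted p = 0.886). Of its 6 values 3 repeated, in every decimal, the value of some other feature on that array, so this feature need not be a measurement of its own on those arrays.

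SPT15, the TATA-binding protein that serves all 3 nuclear polymerases, lay at −1.23, 0.98, 1.18, −1.77, −0.14 and −0.73 on arrays 1 to 6 as deposited. When turned it was at −0.96 ± 0.33 with 5 of 6 arrays negative, array 5 being the exception (unadjusted p = 0.0136, adjusted p = 0.282). Day 4 alone gave −1.21, day 1 alone −0.29, the fit with array 1 turned over −0.55 (unadjusted p = 0.228), and the fit with the day as a block −0.75 (unadjusted p = 0.151). SPT15 had 2 values that were exact ratios of small whole numbers, and without such values it was at −0.86 (limma unadjusted p = 0.0807). Slide neighbours had a turned mean of −0.57, and after their subtraction SPT15 was at −0.39 ± 0.22 (adjusted p = 0.589). BRF1, the polymerase III-specific subunit of TFIIIB that recruits the enzyme, lay at 1.24, −0.73, −0.96, 0.86, 0.89 and 0.40 as deposited. Its turned value was 0.55 ± 0.35 with 5 of 6 positive, array 5 again on the other side (unadjusted p = 0.142, adjusted p = 0.569). In the turned reading BRF1 and SPT15 thus lay on opposite sides on every array. The neighbours of BRF1 were at −0.030, and their subtraction left 0.58 ± 0.26 (unadjusted p = 0.0555).

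Of the TFIIIC genes, TFC8 stood apart and the rest were near 0. TFC8, a subunit of the part of TFIIIC that binds the B box, lay at 0.95, −0.92, −1.24, 1.29, −5.83 and 0.30 on arrays 1 to 6 as deposited. The sign followed the labelled channel on all 6 arrays, and the turned value was 1.76 ± 0.56 (6 of 6 positive, unadjusted p = 0.00893, adjusted p = 0.266). Array 5 gave a large share of this: without it the value was 0.96 (unadjusted p = 0.0120, adjusted p = 0.294). TFC8 had 1 value that was an exact ratio of small whole numbers, and without such values it was at 0.87 (limma unadjusted p = 0.0324). The slide neighbours had a turned mean of 0.71 and their subtraction left 1.05 ± 0.42 (unadjusted p = 0.0362, adjusted p = 0.543). TFC3, the largest subunit, which binds the B box, was at 0.0098 ± 0.43 when turned, with values of −1.81 on array 2 and 1.77 on array 5 as deposited, and 4 of its 6 values repeated another feature's value on that array. TFC1 and TFC7, a dimer on the A-box side, stood at −0.31 ± 0.30 and 0.36 ± 0.34, TFC6 at −0.041 ± 0.38, and the 2 features of TFC4, which recruits TFIIIB, at 0.23 and −0.074. The TFC4 features were on the same side on only 3 of 6 arrays. The median of the 7 TFIIIC features was 0.0098 when turned and 0.21 as deposited.

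MAF1, the repressor of polymerase III, had no settled side. It lay at −0.85, 0.57, 1.97, 0.27, −1.47 and 3.40 on arrays 1 to 6 as deposited. The turned value of 0.30 ± 0.56 had 3 arrays on each side (adjusted p = 0.908), and the value as deposited was 0.65 ± 0.56 with 4 of 6 positive (adjusted p = 0.727). Within day 4 the turned value was −1.41 and within day 1 it was 2.44, so the 2 days that hold both channel assignments gave opposite sides.

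**Figure D3:**
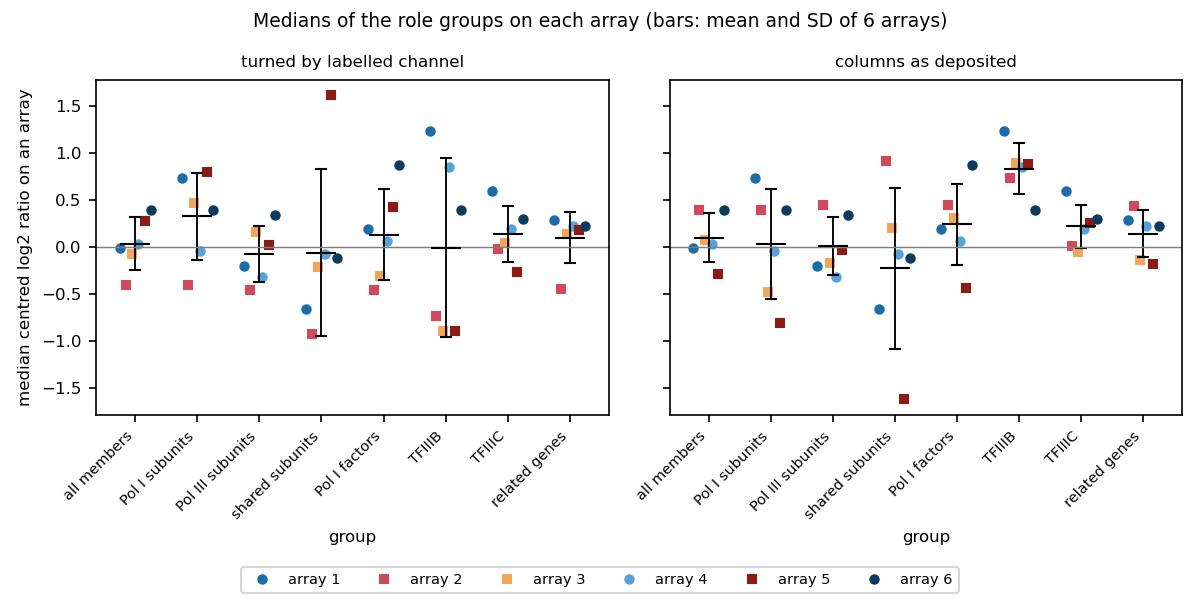
Median centred log2 ratio of each role group on each array (points, circles for the mutant in channel 1 and squares for channel 2), with the mean and SD of the 6 array medians in black, turned (left) and as deposited (right). The SD bars cross 0 for every group when turned, and the TFIIIB median, from 3 features, is above 0 on all 6 arrays as deposited.

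Set side by side, the role groups overlapped on the arrays. In the turned reading the mean of the 6 array medians was 0.33 ± 0.46 (SD) for polymerase I subunits, −0.072 ± 0.30 for polymerase III subunits, −0.059 ± 0.89 for shared subunits, 0.14 ± 0.49 for polymerase I factors, −0.0048 ± 0.95 for TFIIIB and 0.14 ± 0.30 for TFIIIC. As deposited it was 0.037 ± 0.59, 0.015 ± 0.31, −0.22 ± 0.86, 0.24 ± 0.43, 0.84 ± 0.27 and 0.22 ± 0.23 in the same order. Medians are descriptions and were not tested. The TFIIIB median as deposited was 0.40 to 1.24 on single arrays, and it was the value of BRF1 on 4 arrays and of BDP1 on the other 2. The median of the 3 fitted TFIIIB values as deposited was lower, at 0.28 (SPT15 −0.28, BRF1 0.28, BDP1 1.35).

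Polymerases I and III have homologous subunits, and 5 such pairs could be compared within each array, which gives 10 differences over both readings. These comparisons were not planned beforehand. None passed after adjustment. RPA190 minus RPO31 was 1.55 ± 1.06 (SD, 5 of 5 arrays positive) when turned, with an exact sign-flip permutation p of 0.0625, the smallest that 5 arrays can give (two-sided, adjusted p = 0.208). It was 0.58 after subtraction of slide neighbours and 1.25 with array 1 turned over, each with 4 of 5 arrays positive (exact permutation p = 0.188). RPA12 minus RPC11 was −0.51 ± 0.43 when turned, with 5 of 6 arrays negative (exact permutation p = 0.0625, adjusted p = 0.208). With array 1 turned over it was −0.28 with 4 of 6 arrays negative (exact permutation p = 0.344). After subtraction of slide neighbours it was −0.65 (exact permutation p = 0.094). Of the 6 RPC11 values 4 repeated another feature's value on that array. RPA14 minus RPC17 was 1.76 ± 0.56 as deposited, with 6 of 6 arrays positive (exact permutation p = 0.0312, the smallest that 6 arrays can give, adjusted p = 0.208), which restates the low RPC17 values, since RPA14 stood at 0.37. After subtraction of slide neighbours that difference was 0.46 (exact permutation p = 0.156), and with array 1 turned over it was 1.45 with 5 of 6 arrays positive (exact permutation p = 0.0625). For RPA135 minus RET1 and RPA43 minus RPC25 the exact permutation p was 0.188 to 0.812 in both readings. RPA135 minus RET1 was −0.52 ± 1.19 when turned and 0.80 after subtraction of slide neighbours. Of RPA43 minus RPC25 the turned value was 0.85 ± 1.26, and −0.32 after subtraction of slide neighbours. As deposited it was −0.56 with 5 of 6 arrays negative, and −1.16 with 6 of 6 negative when array 1 was turned over (exact permutation p = 0.0312, the smallest possible, not adjusted).

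**Figure D4:**
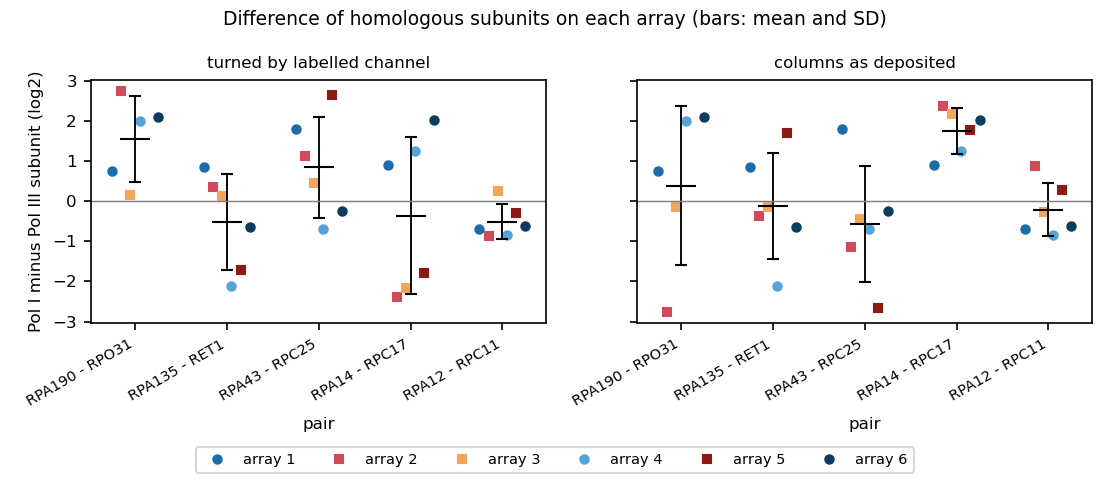
Difference in centred log2 ratio between the polymerase I and the polymerase III member of 5 homologous pairs on each array (points, circles for the mutant in channel 1 and squares for channel 2), with mean and SD in black, turned (left) and as deposited (right). RPA190 minus RPO31 is above 0 on all 5 measured arrays when turned, and RPA14 minus RPC17 on all 6 as deposited.

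Position on the slide, as read from the order of the identifiers, moved with the values of these genes. RPA190 (7102), TFC8 (7098) and RET1 (7061) had identifiers within 41 of one another, and that of RPC34 (7344) was 242 from RPA190. Among the 200 features within 100 identifiers of RPA190, 93% were positive in the turned reading, with a median of 1.00. Of these features 45.5% had an unadjusted p below 0.05 by limma. Around RPC34 89% were positive, with a median of 0.69. On array 5 the nearest neighbours of RPA190 stood at −5.66 as deposited. Around RPC37 the features were at −0.015 (feature 3699) and −0.19 (feature 4892) in the median, around SPT15 at −0.087, and, as deposited, around RPC17 at −0.054 and around BDP1 at −0.11. By limma, 6.5% and 7% around RPC37 and 11% around SPT15 had an unadjusted p below 0.05, against 13% of all features. As deposited it was 20.5% around RPC17 and 26.5% around BDP1, against 13.5% of all. Nearest neighbours averaged −0.57 for SPT15 when turned, and −0.88 for RPC17 and 0.39 for BDP1 as deposited. Across the 43 features the fitted value correlated with the mean of the nearest neighbours at 0.76 when turned and 0.77 as deposited, against 0.66 and 0.60 across all 7680 features. These correlations are across features that share slides and arrays, and they were not tested. The part of slide position in the values of RPA190, TFC8, RET1, RPC34, RPC37, SPT15, RPC17 and BDP1 was not tested beyond the subtraction given with each gene.

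**Figure D5:**
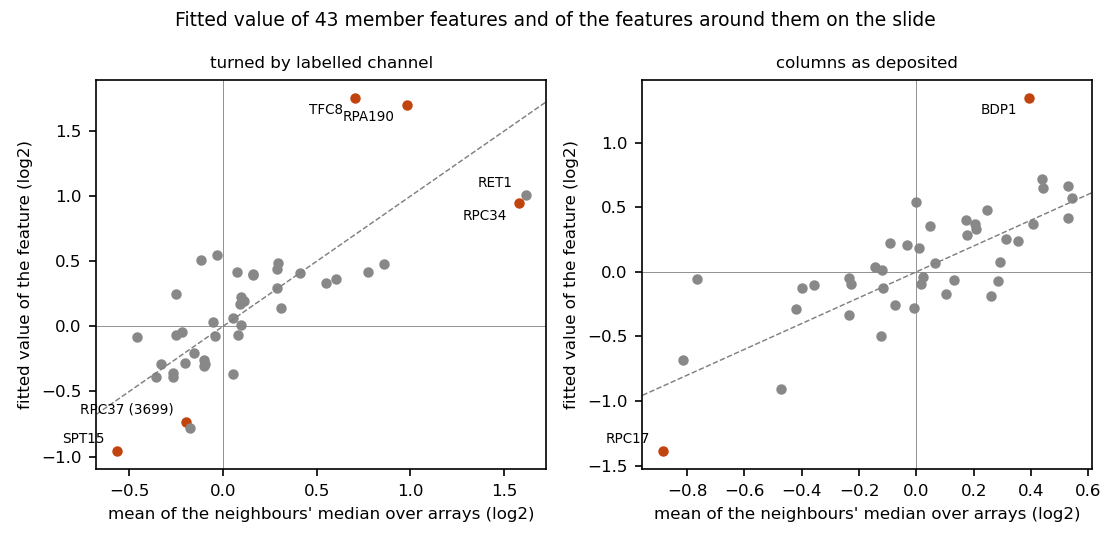
Fitted log2 value of each of the 43 features (vertical axis) against the mean over arrays of its neighbours' median on the slide (horizontal axis, neighbours at 1, 2, 20 and 21 identifiers), turned (left) and as deposited (right), with the line of equality dashed and features with an unadjusted p below 0.05 in red. RPA190, RET1 and RPC34 lie at the right end of the turned panel, where the neighbours are also high, while TFC8 (turned) and BDP1 (as deposited) lie well above the line.

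Related genes outside the machinery gave a like picture. The list held 26 genes with 31 features: subunits common to the nuclear polymerases, other ribosomal DNA factors, TFIIIA, kinases that act on Maf1 and on the polymerases, and elongation and termination factors. By limma 0 of 31 features passed in either reading, and 2 had an unadjusted p below 0.05 when turned (6.45%, against 13% of all features) and 1 as deposited (3.23%, against 13.5%). PZF1, which encodes TFIIIA, the factor specific to the 5S ribosomal RNA genes, was at 1.43 ± 0.43 when turned (6 of 6 positive, unadjusted p = 0.00630, adjusted p = 0.259). It lay at 1.17, −1.17, −0.81, 0.53, −4.10 and 0.78 on arrays 1 to 6 as deposited, and its slide neighbours had a turned mean of 1.29. With array 1 turned over PZF1 was at 1.04 (unadjusted p = 0.0541), and after subtraction of the neighbours at 0.14. PZF1 had 2 values that were exact ratios of small whole numbers, and without such values it was at 0.89 (limma unadjusted p = 0.0459). NHP6A, a DNA-bending protein that helps transcription of the U6 RNA gene by polymerase III, lay at 1.10, −0.68, −0.89, 1.43, −1.14 and −0.12 on arrays 1 to 6 as deposited. When turned it was at 0.85 ± 0.33 (5 of 6 positive, unadjusted p = 0.0236, adjusted p = 0.314), with neighbours at 0.77, and at 0.49 with array 1 turned over (unadjusted p = 0.234). Feature 1770 of SPT4, an elongation factor, lay at 0.58, 1.48, 0.74, 0.23, 0.45 and 1.00 on arrays 1 to 6 as deposited, above 0 on every array. Its value as deposited was 0.75 ± 0.31 (unadjusted p = 0.0360, adjusted p = 0.314), and 0.55 with array 1 turned over (unadjusted p = 0.148). The other SPT4 feature was at 0.43 ± 0.33 (5 of 6 positive, adjusted p = 0.679).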

How the data were processed

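The deposited value table holds 1 value per spotted feature and array. Judged from its values, these are log10 channel ratios. Of the authors' background correction, normalization, software and numerator channel, none is given in the sources used here. Spotted features are named by GEO's platform annotation, which can be old, and all 37 symbols were found unchanged in the RefSeq gene table. Of 7684 rows, 1 without a numeric identifier was dropped and 3 repeated identifiers were averaged, which left 7680 features, of which 6695 had 1 symbol and 985 none. Values per array numbered 7625 to 7680, and the SD of the log2 ratios ran from 0.99 to 1.43. The number of arrays limits the precision.

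The deposited log10 ratios were rescaled to log2, and the median of an array was subtracted from all of its values. limma 3.58.1 (R 4.3.3) fitted every feature with values on at least 4 arrays and 2 per channel assignment, with 2 coefficients, one for the columns as deposited and one for the labelled mutant channel. The moderated test was two-sided, with Benjamini-Hochberg adjustment over all 7680 features and a threshold of 0.05. The fit was also run on simulated data with known shifts and independent noise, without the slide neighbours' likeness or the repeated values seen here. That run checked the size of the estimated shifts, and it cannot show whether the p-values hold for these arrays. Arrays were put by source label into 1 group of 6, and the prefix in the title of array 1 was not used. Slide neighbours are features whose identifiers differ by 1, 2, 20 or 21, summarised by their median. The order of the identifiers was taken as the order on the slide, since no slide coordinates were used here. Arrays 5 and 6 share a labelled day (day 1), as do arrays 1 and 3 (day 4), while arrays 2 and 4 each have their own. Homologous subunits were compared by exact sign-flip tests over arrays.

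The genes, the role lists and the related genes were chosen with earlier results of these data known. All 37 genes of the machinery are named, and of the related genes those with an unadjusted p below 0.05. Values on each array are given for features with an unadjusted p below 0.05 or 1 sign on every array, and for RPA190, RPA135, RPO31, RET1, RRN3, BRF1, SPT15 and MAF1. Others given in full, such as RPC40, RPC19 and RPC10, were chosen after their values were seen. Alternatives covered centring, scale, slide neighbours, days averaged or as a block, ratios of small whole numbers, repeated values, features of a gene, array weights, the variance prior, each reading alone, array 1 turned over, missing values, unnamed features and each array left out. The planned promoter motif search was not run, since no promoter sequences were used here.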

Additional observations from a re-analysis of the deposited data

Results flagged for a closer look

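Of 102 sets of 6 values examined (each feature and each group median, in both readings), 13 had 1 array far from the rest, meaning that its gap to the nearest array, as a share of the whole range, passed the 95% critical value of Dixon's test. By that definition chance marks about 1 in 20 independent sets, but the readings of 1 feature share their values, so the number of sets marked was not compared with chance. Array 2 stood apart for RPA12, at 1.62 as deposited and −1.62 when turned, while the other 5 arrays lay within −0.23 to 0.22. Array 4 stood apart for RPC10, at 3.35 in both readings, and for RRN10 when turned, at −1.05 against 0.33 to 1.09 on the other arrays. Array 1 stood apart for BDP1 as deposited, at 3.04 with the next at 1.23, and for TFC7 in both readings, at 1.79. Array 5 stood apart for TFC8, at −5.83 as deposited and 5.83 when turned, and for the turned median of the shared subunits, at 1.62. Array 6 stood apart for 1 RPC25 feature when turned, at 1.01 against −1.01 to −0.29. The turned median of the related genes was −0.44 on array 2 and 0.14 to 0.29 on the others.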

How the results depend on the processing

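No member passed an adjusted p of 0.05 except without centring in the turned reading (23 of 43 features, against 63.6% of all features), and, as deposited, with array weights (2, RPC17 and BDP1, against 7.55% of all) or without array 5 (1, RPC17, against 2.79% of all, range 0 to 1 over the 6 arrays left out). Without centring the median of all features was −2.07 turned and −0.82 as deposited, so those counts are not relative to the typical feature, and 29 of 43 features had an unadjusted p below 0.05, none positive and 29 negative, against 75.6% of all features. The turned count of 5 became 2 after subtraction of slide neighbours, 3 with days averaged (RPC37 and RPC34 no longer among them), 3 with the day as a block (TFC8, RPA135 and RET1, with RPA190 not fitted), 3 without ratios of small whole numbers, 2 with array 1 turned over, and 3 to 6 with 1 array left out, the lowest without array 4 or 6. The deposited count of 2 became 1 without centring, 1 after subtraction of slide neighbours, 1 without repeated values, 5 with array weights, 0 with array 1 turned over, and 2 to 4 with 1 array left out, the highest without array 2 or 5. Group medians without centring were −1.69, −2.22, −2.18, −2.01, −1.71 and −2.10 turned for polymerase I, polymerase III, shared subunits, polymerase I factors, TFIIIB and TFIIIC, and −0.65, −0.88, −0.68, −0.55 and −0.62 as deposited for the same groups without the shared subunits. Subtraction of slide neighbours moved the turned polymerase I median to −0.16. Group medians in this section are those of the fitted values, and for TFIIIB as deposited that was 0.28 in the main fit. It was 0.0012 without repeated values and −0.0072 to 0.46 with 1 array left out. RPA190 (−0.84), RPC34 (−1.16) and TFC8 (−0.35) turned negative without centring, and RPC34 (−0.63) after subtraction of slide neighbours. The unadjusted call of RPC34 was lost without array 2, 5 or 6, of RPC37 without 2, 4, 5 or 6, and of SPT15 without 3 or 4. The related genes' turned count of 2 became 24 without centring, 4 with array weights, 1 with a robust prior with trend, 0 with array 1 turned over, 1 with the day as a block, and 1 to 4 with 1 array left out. Their deposited count of 1 became 0 without centring, after subtraction of slide neighbours or without ratios of small whole numbers. It became 2 without repeated values, with each reading fitted alone, with values on all 6 arrays only or without unnamed features, and was 0 to 2 with 1 array left out. The tests of the homologous pairs were not planned beforehand. The day as a block, the alternatives for the related genes and those for the homologous pairs were chosen after seeing the data. Of 1624 alternative values of single features, 1544 left the unadjusted call as it was, 31 lost a call, 4 of them with a change of side, and 49 gained one, 27 of those without centring. The causes of these shifts were not tested. Over the alternatives the adjusted p of RPA190 ran from 0.0580 to 0.964, of TFC8 from 0.122 to 0.964, of RPC17 from 0.00694 to 0.563 and of BDP1 from 0.0226 to 0.886. Each array holds mutant and wild-type RNA, so every ratio is paired within its array. No further pairing between arrays was used, since they form 1 group with no replicate numbers to match. The titles of arrays 1 and 3 name slides 5a and 5b, and both arrays are of day 4. Only the labelled day was used as a block. Promoter motifs were not run. Signal over background is unknown, since the values are ratios.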
